A study of Mus musculus with 7 samples.

Results

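Sftpd encodes surfactant protein D, and it is described here with 8 related genes in pancreatic islets of pregnant mice. The group holds 7 collectin genes (Sftpd, Sftpa1, Colec10, Colec11, Colec12, Mbl1 and Mbl2) and the 2 genes of the hydrophobic surfactant proteins, Sftpb and Sftpc. The members were chosen by name, as the array's probe sets annotated with 1 of these symbols alone, and all 9 were measured among 19938 genes. Each had 1 probe set, so the rule of taking the probe set with the highest mean decided nothing. Sftpd itself was selected on its lower values in PrlR+/- islets of these same mice. Its difference between the genotypes is therefore given as a description, with no test.

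The islets came from female mice of C57BL/6 strain background that were mated at 12 to 16 weeks of age and killed on day 15 of pregnancy. The labels put 3 mice in the wild type group (PrlR+/+) and 4 in the group with a single null allele of the prolactin receptor (PrlR+/-), and 1 array was run per mouse. The null allele is carried in every cell of the PrlR+/- mice, not in islets alone. Whole islet preparations were measured, so the arrays also carry RNA of exocrine, vascular and immune cells. The deposited values are on a log2 scale, between 1.73 and 13.97 over all probe sets. The median gene lay between 7.34 and 7.37 on every array. The hormone genes Ins2, Gcg and Sst were high, with means of at least 13.29, 13.49 and 13.57 in each genotype. The acinar genes Ctrb1 and Cpa1 were as high, with means of at least 13.72 and 13.67. Over 10 acinar markers the 7-mouse means ran from 6.66 to 13.72. These levels alone therefore do not show how pure the islets were. Prlr itself was not analysed here, and no check of the genotypes by its level was made. The comparison asks how the loss of 1 receptor allele changes islet transcripts in pregnancy.

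Collectins are secreted or membrane-bound proteins with a collagen-like stem and a C-type lectin head that binds sugars on microbes and on dying cells. Surfactant proteins A and D are best known from the alveolar and airway epithelium of the lung, and protein D is also known in epithelia outside the lung. The mannose-binding lectins are liver-derived plasma proteins that start the lectin pathway of complement through the MASP proteases. Surfactant proteins B and C are not collectins but small hydrophobic proteins that spread the lipid film of the alveolus.

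Sftpd (probe set 10419096) was lower in every PrlR+/- mouse than in any PrlR+/+ mouse. Its log2 values were 7.88, 8.30 and 8.24 in PrlR+/+ mice 1 to 3 and 7.43, 7.19, 6.76 and 6.99 in PrlR+/- mice 1 to 4. The groups did not overlap, and a gap of 0.45 separated the lowest PrlR+/+ mouse from the highest PrlR+/- mouse. The means were 8.14 ± 0.23 (SD, n = 3) and 7.09 ± 0.29 (SD, n = 4), a difference of -1.05 ± 0.17 (limma SE), or 0.484 of the PrlR+/+ level. In PrlR+/- mice 2, 3 and 4 the value lay below the median gene of the array (7.34 to 7.37). How far it lies above background is unknown, so 0.484 is a ratio of array values. Of 19938 genes, 5 had a lower difference. With any single mouse left out the difference lay between -1.18 and -0.94. In whole islets, fewer cells that express Sftpd and less Sftpd RNA per cell cannot be told apart.

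**Figure D1:**
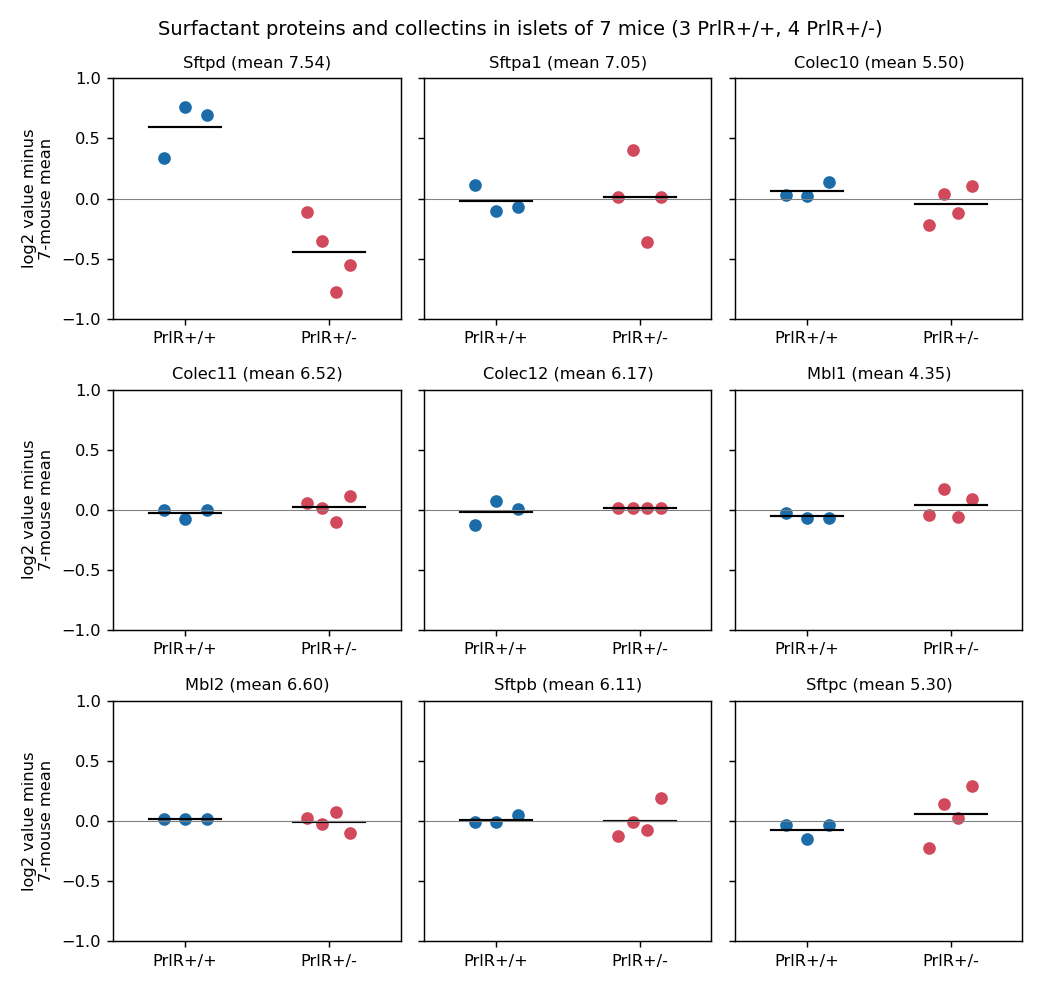
Each panel plots 1 gene as its log2 value minus its mean over the 7 mice, with a point per mouse and a bar at each genotype's mean, and gives the 7-mouse mean in the panel title. The 3 PrlR+/+ points of Sftpd lie above its 4 PrlR+/- points, while the groups of the 8 other genes overlap.

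The groups of the other 8 genes overlapped. Among the 9 members, Sftpd alone had groups that did not overlap, lower in PrlR+/- islets, as 1.21% of all genes did. Since Sftpd was chosen for this contrast, nothing is read from that count. Of the other 8, 3 had lower and 5 had higher means in PrlR+/- islets, with a median difference of 0.03 against 0.01 over all genes. Their differences ran from -0.11 to 0.13, a range that held 73.5% of all genes. limma with Benjamini-Hochberg adjustment called 0 of the 8 genes, with adjusted p of at least 0.99, and 0 of them had an unadjusted p under 0.05. Over all 19938 genes it called 0 (0.0%), and 438 (2.2%) had an unadjusted p under 0.05.

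Sftpa1, which encodes surfactant protein A, the collectin most often named beside protein D, had its widest spread among the PrlR+/- mice. Its values were 7.16, 6.95 and 6.98 in PrlR+/+ mice and 7.06, 7.45, 6.69 and 7.06 in PrlR+/- mice. Both the highest and the lowest value belonged to PrlR+/- mice, numbers 2 and 3. The difference was 0.04 ± 0.17 (SE), with a 95% interval from -0.35 to 0.42. That interval is the widest of the 8.

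The mannose-binding lectin genes differed by less than 0.10 between the genotype means. Mbl1, which encodes mannose-binding lectin A, was at 4.32, 4.28 and 4.28 in PrlR+/+ mice and at 4.30, 4.52, 4.29 and 4.44 in PrlR+/- mice. PrlR+/- mice 2 and 4 lay above the PrlR+/+ mice and the other two among them, for a difference of 0.09 ± 0.07 (SE). Mbl2, which encodes mannose-binding lectin C, had the value 6.61 in all 3 PrlR+/+ mice and 6.62, 6.57, 6.67 and 6.50 in PrlR+/- mice. The difference was -0.02 ± 0.06 (SE), with a 95% interval from -0.16 to 0.12. A value shared by all 3 PrlR+/+ arrays was found for 1126 genes, or 5.65%.

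Of the 3 collectins named after their collagen-like stem, Colec10 had the lowest difference of any member after Sftpd. Colec10, the gene of collectin liver 1, was at 5.53, 5.52 and 5.64 in PrlR+/+ mice and at 5.28, 5.54, 5.38 and 5.60 in PrlR+/- mice. PrlR+/- mice 1 and 3 were lowest and the groups overlapped, with a difference of -0.11 ± 0.09 (SE) and a 95% interval from -0.32 to 0.10. Leaving out 1 mouse moved it to between -0.163 (without PrlR+/- 4) and -0.057 (without PrlR+/- 1). Colec11 encodes collectin kidney 1, a plasma protein that forms complexes with the product of Colec10 and with MASP proteases. It was at 6.52, 6.45 and 6.52 in PrlR+/+ mice and at 6.58, 6.54, 6.42 and 6.64 in PrlR+/- mice, a difference of 0.05 ± 0.07 (SE). Colec12 encodes a membrane scavenger receptor of endothelium, which binds microbes and modified lipoproteins. Its value was 6.18 in all 4 PrlR+/- mice and 6.04, 6.24 and 6.17 in PrlR+/+ mice, a difference of 0.03 ± 0.06 (SE). An equal value on all 4 PrlR+/- arrays was found for 179 genes, or 0.898%.

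The prolactin receptor signals through STAT factors, so promoter windows were searched for the STAT motif TTCNNNGAA. RefSeq windows of 300 bases (GRCm38.p6, from 250 before to 50 after a gene's start) were matched for 5 members, Sftpa1, Sftpb, Colec11, Mbl1 and Mbl2. Only the Colec11 window of these 5 held the motif, as did 8.3% of all 32851 windows. No window was available for Sftpd itself, nor for Sftpc, Colec10 and Colec12, so their promoters were not searched. The 100 bases that hold the Colec11 match are positions -250 to -151 from the start (GRCm38.p6, chr12:28623481-28623580, minus strand). They are shown because Colec11 is the searched member with such a match and its groups overlapped. Capitals mark the motif, which overlapped no other motif searched:
Colec11: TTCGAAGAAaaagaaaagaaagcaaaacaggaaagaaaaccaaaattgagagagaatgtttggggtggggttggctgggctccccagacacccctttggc

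The Sftpb window held 1 match each to the C/EBP motif TTNNGNAA and the AP-1 motif TGANTCA, which did not overlap and were found in 40.7% and 7.81% of all windows. The FOX motif TGTTTAC (3.65% of windows) and the NFAT core GGAAAA (23.4%) matched none of the 5. All motifs were read on both strands. A match describes letters in the window and not a site in use.

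The hydrophobic surfactant protein genes overlapped between the genotypes too. Sftpb, whose protein adsorbs lipid to the air surface, was at 6.10, 6.10 and 6.16 in PrlR+/+ mice and at 5.99, 6.10, 6.04 and 6.30 in PrlR+/- mice. The difference was -0.01 ± 0.08 (SE). Sftpc, which encodes the membrane-spanning surfactant protein C, was at 5.26, 5.15 and 5.26 in PrlR+/+ mice and at 5.07, 5.44, 5.32 and 5.59 in PrlR+/- mice. Its difference of 0.13 ± 0.12 (SE) was the highest of the 8, with PrlR+/- mice on both sides of the PrlR+/+ range and a 95% interval from -0.15 to 0.41. It was 0.053 without PrlR+/- mouse 4, 0.227 without PrlR+/- mouse 1 and -0.027 with array weights. Colec10, Mbl1, Sftpb and Sftpc had means of at most 6.12 in both genotypes. Those of Colec11, Colec12 and Mbl2 were little higher, between 6.15 and 6.61. The files give no signal over background, so it is unknown how far such low values lie above it.

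**Figure D2:**
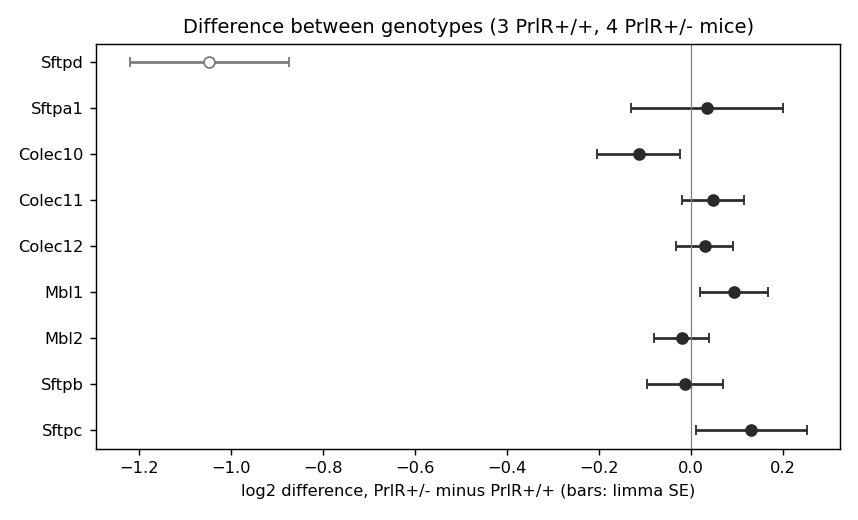
The horizontal axis is the log2 difference, PrlR+/- minus PrlR+/+, with bars for the limma SE (3 PrlR+/+ and 4 PrlR+/- mice). The open point is Sftpd at -1.05, which was chosen for this contrast, and the 8 filled points lie between -0.11 and 0.13.

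Sftpd, Mbl1 and Sftpa1 lie close together in the mouse genome, and the groups of the measured genes next to Sftpd overlapped. The RefSeq table places Mbl1 directly beside Sftpd and puts 2 genes, Mbl1 and another, between Sftpd and Sftpa1. The next measured gene on that side was Mat1a, which encodes a methionine adenosyltransferase. It was at 10.62, 10.81 and 10.60 in PrlR+/+ mice and at 10.51, 10.68, 9.88 and 10.58 in PrlR+/- mice. Only PrlR+/- mouse 3 stood clearly lower, for a difference of -0.26 ± 0.19 (SE). Dydc1, Dydc2 and Prxl2a followed with differences of -0.03, 0.12 and -0.22.

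On the other side, 83 RefSeq genes, none of them among the genes tested, separated Sftpd from the first measured gene, Ang5 of the angiogenin ribonuclease family. Its difference was 0.16 ± 0.11 (SE). The 6 genes measured on that side ran from -0.27 (Txndc16) to 0.16 (Ang5), with Ang6 at 0.15, BC061237 at 0.07, Ptger2 at 0.04 and Ptgdr at -0.06. Over the 12 genes on both sides, 5 had lower and 7 had higher means, the median was 0.04 and the groups of 0 were apart. With 1.21% of all genes apart in the lower and 1.03% in the higher direction, that count is near the background.

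**Figure D3:**
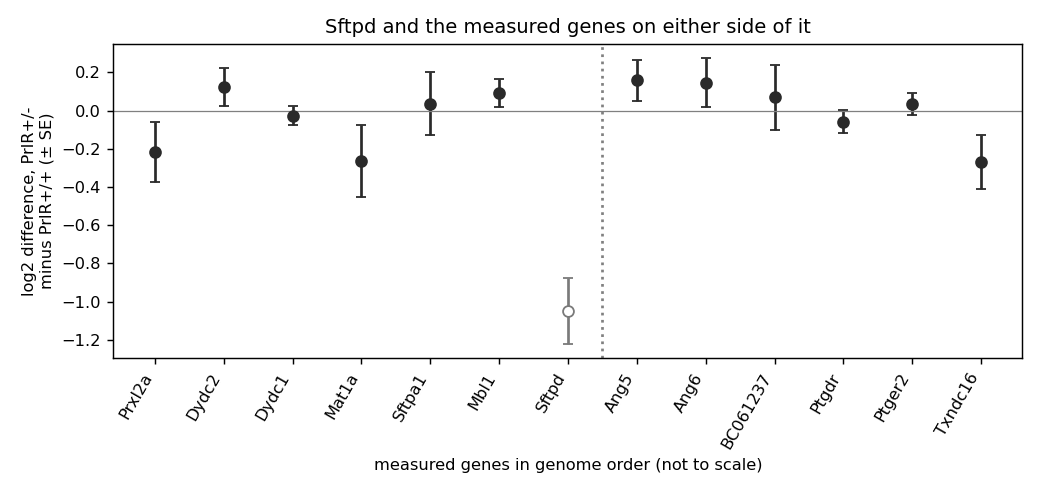
Measured genes are drawn in genome order, not to scale, with the log2 difference, PrlR+/- minus PrlR+/+, and its limma SE on the vertical axis (3 PrlR+/+ and 4 PrlR+/- mice). The open point is Sftpd at -1.05, the dotted line stands for the 83 genes not tested, and the other points lie between -0.27 and 0.16.

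Of the genes that act with the collectins or bind them, 0 had groups that did not overlap, a count near the background, since 1.21% of all genes had groups apart in the lower and 1.03% in the higher direction. Of 17 measured genes of the lectin and classical complement pathways, 2 had lower and 15 had higher means in PrlR+/- islets, with a median of 0.08 and 0 called by limma. Masp1, which encodes a protease carried by mannose-binding lectin and collectin kidney 1, was at 0.15 ± 0.08 (SE), with values of 6.24 to 6.36 in PrlR+/+ and 6.29 to 6.54 in PrlR+/- mice. C1ra, a protease gene of the classical pathway, was at 0.27 ± 0.18 (SE). The mean of this list was lowest in PrlR+/+ mouse 2, at 6.565, and highest in PrlR+/- mouse 2, at 6.87. Its median difference was 0.0225 without PrlR+/+ mouse 2 and 0.02 without PrlR+/- mouse 2. With array weights the median of this list was -0.01, so its sign turned, as did that of the next 4 lists under at least 1 alternative.

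Among 14 genes of receptors and binding partners, 6 had lower and 8 had higher means, with a median of 0.02. Sirpa, which encodes an inhibitory receptor bound by the lectin heads of proteins A and D, was at 0.13 ± 0.11 (SE). Dcn, the gene of the matrix proteoglycan decorin, was at 0.29 ± 0.27 (SE), with 8.99, 9.98 and 8.86 in PrlR+/+ mice and 9.28 to 9.78 in PrlR+/- mice. Dmbt1, whose scavenger receptor product binds protein D and which is named here after its values were seen, was at 12.46, 13.19 and 12.48 in PrlR+/+ and from 12.42 to 13.11 in PrlR+/- mice. Its groups overlapped over nearly their whole range.

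Surfactant production and turnover genes were split evenly, with 6 of 12 lower, 6 higher and a median of -0.0025. Ctsh, a protease gene of surfactant protein B and C maturation, was at -0.28 ± 0.17 (SE). Its value of 6.30 in PrlR+/- mouse 4 stood below 6.87 to 7.13 in the 6 other mice. Lpcat1, an enzyme gene of surfactant lipid remodelling, was at -0.07 ± 0.06 (SE). Relatives of the hydrophobic proteins in the saposin-like and BRICHOS families had a median of 0.02 over 9 genes, with Cnmd at 0.14 ± 0.09 and Itm2c at 0.05 ± 0.06 (SE).

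Transcription factors with reported sites in the Sftpd promoter had a median of 0.07, with 4 of 12 lower and 8 higher. The median was -0.041 with array weights and -0.043 without PrlR+/- mouse 4. The replicate block gave the same -0.043, since no PrlR+/+ mouse has the number 4, and it is not a separate check. Junb of the AP-1 family was at 7.09, 7.51 and 8.09 in PrlR+/+ mice and at 6.79, 6.95, 7.27 and 7.32 in PrlR+/- mice. The groups overlapped, and the difference was -0.48 ± 0.24 (SE). Foxa2, a factor of endoderm-derived epithelia and islets, was at 0.22 ± 0.11 (SE). The lowest difference of the list, named after its values were seen, was that of Fos at -0.84 ± 0.69 (SE). Fos was at 7.01, 8.0 and 10.30 in PrlR+/+ mice, a spread wider than the difference. Its highest value was in PrlR+/+ mouse 3 and its lowest in PrlR+/+ mouse 1, below the 7.23 to 7.93 of the PrlR+/- mice. A link of Fos to Sftpd was not tested.

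None of the cell type marker lists had a mean that was lower in every PrlR+/- mouse than in any PrlR+/+ mouse. The alveolar and hepatocyte lists stand for lung and liver, the organs named above for these proteins, rather than for the pancreas. The mean of 9 alveolar markers, 5 of them with higher and 4 with lower means, ran from 6.08 to 6.20 in PrlR+/+ and from 6.06 to 6.42 in PrlR+/- mice. Of these, Ager was at 0.14 ± 0.09 and Lamp3 at 0.14 ± 0.13 (SE). Arrays give no true 0. The lung lineage factor Nkx2-1 was at 5.60 to 5.61 and 5.47 to 5.74 in the 2 genotypes, and the club cell gene Scgb1a1 at 3.39 in all 3 PrlR+/+ and 3.35 to 3.40 in PrlR+/- mice. The mean of 9 duct markers, 6 higher and 3 lower, ran from 7.93 to 8.36 in PrlR+/+ and from 8.07 to 8.42 in PrlR+/- mice, with Muc1 at 0.45 ± 0.34 (SE). The mean of 10 acinar markers, 9 higher and 1 lower, ran from 11.40 to 11.75 and from 11.53 to 12.07, with Try4 at 0.44 ± 0.20 and Cela2a at 0.14 ± 0.12 (SE). The part of these cells in the Sftpd values was not tested.

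Among the other lists, the mean of 12 hepatocyte markers ran from 5.85 to 5.87 in PrlR+/+ and from 5.88 to 5.99 in PrlR+/- mice, so it lay higher, by a small margin, in every PrlR+/- mouse. Of its genes, 9 had higher and 3 had lower means, with Alb at 0.38 ± 0.17 and Fga at 0.17 ± 0.09 (SE), and 0 of 12 were called. The part of hepatocyte RNA in the collectin values was not tested. The ranges overlapped for 8 macrophage markers (6.55 to 6.80 in PrlR+/+ and 6.77 to 6.86 in PrlR+/- mice), 7 endothelial (9.38 to 9.49 and 9.35 to 9.69) and 7 stellate cell and fibroblast markers (7.14 to 7.28 and 6.97 to 7.59). They also overlapped for 8 beta cell markers (11.88 to 12.06 and 11.72 to 12.01) and 5 markers of other endocrine cells (11.31 to 11.53 and 11.37 to 11.59). The medians of these 5 lists were 0.05, 0.08, 0.09, -0.05 and 0.07. Their genes of smallest p, beside Lyz2 and Emcn, were Marco at 0.09, Cdh5 at 0.23, Lum at 0.24, Pdgfrb at 0.10, Slc2a2 at -0.34, Nkx6-1 at 0.10, Gcg at 0.05 and Irx2 at 0.09. Groups did not overlap for 1 of 8 macrophage, 1 of 9 duct and 1 of 7 endothelial markers, each higher in PrlR+/- islets, and for 0 in each other marker list. Over all genes the share in that direction was 1.03%, and whether the lists exceed it was not tested. These 3 genes were the lysozyme gene Lyz2 at 0.64 ± 0.10, the duct factor gene Sox9 at 0.21 ± 0.12 and the endothelial sialomucin gene Emcn at 0.26 ± 0.09 (SE).

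**Figure D4:**
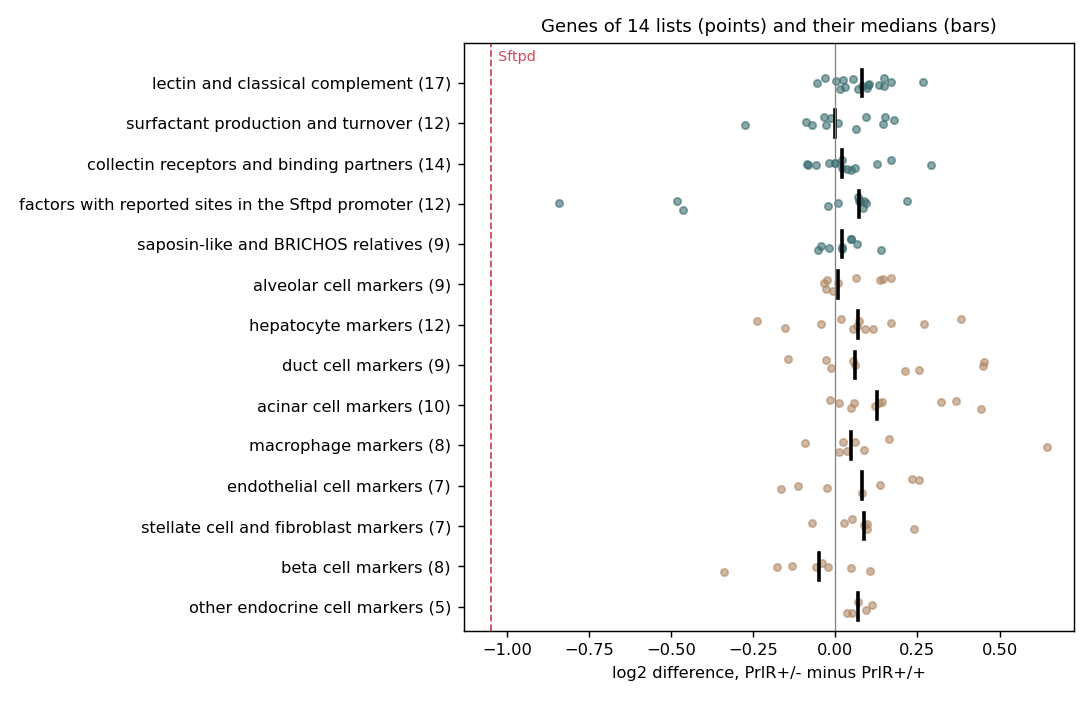
Points are the log2 differences, PrlR+/- minus PrlR+/+, of the measured genes of 14 lists, 5 of pathways and relatives and 9 of cell type markers, with the number of genes in brackets and a bar at each list's median. The dashed line is Sftpd at -1.05, and the medians lie between -0.05 and 0.13.

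The genes whose profile over the 7 mice was nearest to that of Sftpd were not members of its family. Likeness was the root mean square difference between profiles on the log2 scale, each centred on its own mean, so that 0 is an equal profile and a flat gene lies at 0.564 from Sftpd. The nearest of 19937 genes was Cirbp, which encodes a cold-inducible RNA-binding protein, at 0.264. It was at 10.05, 10.60 and 10.44 in PrlR+/+ mice and at 10.02, 9.85, 9.66 and 9.19 in PrlR+/- mice. PrlR+/+ mouse 1 was the lowest of its group for both genes, while the lowest mouse overall was PrlR+/- 4 for Cirbp and PrlR+/- 3 for Sftpd.

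Lrrc55, an auxiliary subunit gene of large-conductance potassium channels, followed at 0.283. Its values were 10.17, 9.92 and 10.42 in PrlR+/+ mice and 9.44, 9.33, 9.25 and 9.50 in PrlR+/- mice, so PrlR+/- mouse 3 was the lowest, as for Sftpd. Mir380, a microRNA precursor gene (0.306), the integrin alpha 4 gene Itga4 (0.324), the F-box gene Fbxo30 (0.334) and Ivd of leucine breakdown (0.334) came next. Mir380 was also lowest in PrlR+/- mouse 3, at 5.46, as was Itga4, at 6.44. Fbxo30 and Ivd were lowest in PrlR+/- mouse 4, at 7.49 and 11.75, as Cirbp was, and the groups of Fbxo30 overlapped. These genes were picked for their likeness to a gene chosen on the genotypes, so their own differences are not separate evidence.

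Within the family, the nearest profile was that of Colec10 at 0.532, which ranked 3403, and the farthest that of Sftpc at 0.668, which ranked 17954. Sftpd was chosen for its gap between genotypes, and genes with a small difference lie near the flat value of 0.564. The distances within the family are therefore not separate evidence. Sftpa1, at 0.592, ranked 11419 and Mbl1, at 0.612, ranked 14022. The mean of the 8 genes, each centred on its 7-mouse mean, was -0.01, -0.04 and 0.00 in PrlR+/+ mice and -0.07, 0.09, -0.08 and 0.09 in PrlR+/- mice. The same quantity for Sftpd alone was 0.34, 0.76 and 0.70 and then -0.11, -0.35, -0.78 and -0.55. PrlR+/- mouse 3 had the lowest value of both quantities, and PrlR+/- mouse 1 was below 0 in both, while PrlR+/- mice 2 and 4 had the highest mean of the 8 genes.

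**Figure D5:**
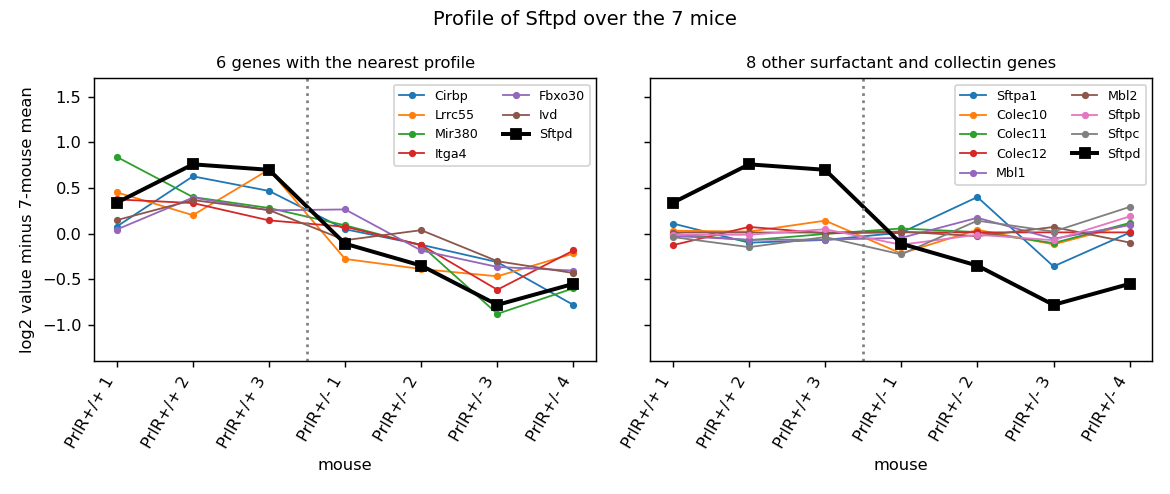
The vertical axis is the log2 value minus the gene's 7-mouse mean, and the horizontal axis lists the mice, whose order within a genotype has no meaning. Thick black lines are Sftpd, which runs from 0.76 down to -0.78, beside the 6 nearest profiles (left) and the 8 other surfactant and collectin genes (right), which stay nearer 0.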

How the data were processed

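Per the labels' protocols, 250 ng of islet RNA per mouse, with an RNA integrity number above 8.5, was biotin-labelled. The authors deposited log2 values with 2 decimals, 1 column per mouse, whose range shows the log2 scale. Affymetrix Expression Console 1.2.0.20 was used, per the submitters' processing notes. How probes were summarized and normalized is not given in the sources used here, and no batches are named. Of 35556 probe sets, 21789 had 1 gene symbol in the platform annotation, 1621 had several and 12146 had none listed; the first gave 19938 genes (highest-mean probe set). Their Entrez identifiers matched RefSeq (GRCm38.p6) for 21698.

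Differences came from limma 3.58.1 (lmFit, eBayes; R 4.3.3), 2-sided, with Benjamini-Hochberg adjustment over all genes at 0.05. The steps were tested on simulated data. The arrays' number limits precision, and p-values measure the spread between these mice only. pandas 2.3.3 in Python 3.11.15 joined the tables.

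The members and the 14 gene lists (139 of 147 entries measured) were chosen with earlier results of these data known. Named are the members, per list the genes with groups apart and at least 2 of smallest p, 6 measured genes per side of Sftpd and the 6 likest profiles. Alternatives were quantile normalization, median centring, eBayes with trend, array weights, the mean of probe sets, a filter at the 40th percentile, the replicate block and leaving out each mouse. Protein features were not analysed here.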

Additional observations from a re-analysis of the deposited data

Results flagged for a closer look

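In the 4 PrlR+/- mice, 5 of 67 genes and list means examined had 1 mouse far from the other 3 (Dixon's test at the 95% level), where chance gives about 1 in 20. Cnmd, a BRICHOS family gene, was at 6.16 in PrlR+/- mouse 4 and at 5.88 to 5.89 in the others. Muc1 was at 10.12 and Sox9 at 8.20 in PrlR+/- mouse 2, against 8.73 to 8.95 and 7.73 to 7.76. Ptger2 was at 5.35 in PrlR+/- mouse 4 and at 5.21 in the other 3. The mean of the saposin-like and BRICHOS list was 7.763 in PrlR+/- mouse 3 and 7.861 to 7.867 in the others. None of the 9 members, Sftpd included, had such a mouse.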

How the results depend on the processing

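The difference of Sftpd ran from -1.18 without PrlR+/+ mouse 1 to -0.86 with array weights, and was below 0 under all 14 alternatives. That sign was largely fixed in advance. The groups of Sftpd did not overlap, so leaving out a mouse, array weights or the replicate block could not turn it. eBayes with trend, the mean of probe sets and the filter on dim genes could not move the difference from -1.05. Quantile normalization gave -1.05 and median centring -1.06. The count of 14 is therefore no check on a gene chosen for this contrast. The median of the other 8 members lay between 0.01 and 0.06, 2 to 4 of them had lower means, and 0 genes were called over all genes, under each alternative that gave a value. The signs of small differences turned. Colec12 was at -0.0054 with quantile normalization and Sftpc at -0.027 with array weights. Leaving out 1 mouse gave -0.093 to 0.16 for Sftpa1, -0.025 to 0.075 for Colec12, -0.047 to 0.01 for Mbl2 and -0.077 to 0.027 for Sftpb. Colec10 ran from -0.163 to -0.057, Sftpc from 0.053 to 0.227, Mbl1 from 0.05 to 0.127 and Colec11 from 0.017 to 0.09, each with its sign kept. The filter on dim genes kept 2 of the 9 members, Sftpd and Sftpa1. Over the 14 lists, 195 of 196 medians moved by less than the spread between mice, yet the median of 8 lists changed sign at least once. The 196 are not separate checks. The medians cannot move with eBayes with trend, the replicate block repeated those without PrlR+/- mouse 4, and some lists share genes.

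The labels do not say that replicate numbers pair the mice. Deviations of same-numbered mice correlated at 0.09, -0.386 and -0.029 across genes, and 0 of 6 mice correlated best with their own number. With 3 and 4 mice per genotype, these values show no pairing but cannot exclude a batch or day shared by number. With the replicate block 0 genes were called, as without it, Sftpd was at -1.01 and Mbl2 at 0.01. No PrlR+/+ mouse has the number 4, so the block gave the differences found without PrlR+/- mouse 4. It is not a separate check. Values near the floor have no measured background here, which limits what Colec10, Mbl1, Sftpb and Sftpc can show. The filter on dim genes also removed Colec11, Colec12 and Mbl2, to which the same limit applies. It kept Sftpd, whose values in PrlR+/- mice have no measured background either.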
